A study of Bos taurus with 38 samples.

Results

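CYP3A4 was followed as a single gene, ENSBTAG00000047379, which is 1 of the 24616 Ensembl genes counted in liver biopsies of dairy cows. The gene was taken by its identifier, and the name CYP3A4 for this identifier comes from the gene lists of the study. It was kept by the expression filter in both breeds, with 12025 genes kept in Holsteins and 11905 in Jerseys. The biopsies came from 9 Holstein and 10 Jersey cows of parity 1, 2 or 3, and each cow was sampled once on a control diet low in concentrate (C) and once on a high concentrate diet (HC), which gave 38 libraries. The cows were chosen as low or high in residual feed intake (RFI), the difference between the feed a cow eats and the feed predicted from its production and body weight, so that low RFI is the group that the labels give as high in feed efficiency. There were 5 low-RFI and 4 high-RFI Holsteins, and 5 low-RFI and 5 high-RFI Jerseys. The study's list of cows names the groups the other way, with 5 Holsteins as high RFI and 4 as low RFI. The cows it names high have mostly negative RFI values, and its Holstein RFI values overlap between the groups. The groups used here follow the feed efficiency labels of the libraries. By parity there were 3 Holsteins in each of parities 1, 2 and 3, while 4 Jerseys were in parity 1, 2 in parity 2 and 4 in parity 3. All cows were lactating animals of 1 research herd and were followed over 2 periods in a crossover. For all cows the methods describe a stay in respiration chambers at the end of each diet period. They also describe a local anaesthetic injected at the biopsy site before the biopsy. The labels name no treatment besides diet.

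Cytochrome P450 enzymes of the CYP3A subfamily sit in the endoplasmic reticulum of hepatocytes, where they take electrons from a reductase partner and oxidise a wide range of substrates, among them drugs, plant and feed compounds, steroid hormones and bile acids. Their transcription is known to respond to nuclear receptors that bind foreign compounds and bile acids. In the liver, CYP3A enzymes are typical of mature hepatocytes and are most abundant in cells near the central vein. Cattle carry several closely related CYP3A genes. The RefSeq annotation of a later assembly lists 4 neighbouring CYP3A genes (CYP3A28, CYP3A74, CYP3A76 and CYP3A24) and gives CYP3A4 as an older name of 2 of them, CYP3A28 and CYP3A74. The identifier could not be tied to 1 of these genes, and reads may be shared between such near copies, so the counts are those of the annotated Ensembl gene and carry that uncertainty. In a biopsy, fewer cells of a type and less RNA per cell cannot be told apart.

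CYP3A4 was counted in every library, with 1570 to 3323 read pairs per library out of 17472750 to 24478289 read pairs assigned to genes. Counting error alone was 1.73 to 2.52% of the count. Levels are given as CPM, the count scaled to 1000000 read pairs assigned to genes, and they ran from 85.4 to 155.5 CPM, with a mean of 115.0 ± 18.9 (SD, n = 38 libraries). The lowest and the highest libraries were both Jersey libraries on the HC diet. The share of read pairs assigned to genes was 74.9 to 79.9% in the 38 libraries.

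The libraries labelled Jersey cows 10 and 17 stood apart in a check of the cow labels. Over the 200 most variable genes in Jerseys, after subtraction of the diet mean, the HC library of cow 10 correlated with the HC library of cow 17 at r = 0.77 and the C libraries of these cows correlated at r = 0.46. The libraries of cow 10 correlated with each other at only r = 0.12 and those of cow 17 at r = 0.28. Cow 14 was also low, at r = 0.19, and the other 7 Jerseys were between 0.46 and 0.90. Both cows are low-RFI Jerseys, cow 10 of parity 2 and cow 17 of parity 1. The labels were used as given, and the fitted comparisons of CYP3A4 that pool Jerseys are also given without these cows in at least 1 form. Other Jersey values include them throughout. These are the diet differences by parity, the RFI groups within a parity or diet, the period means and the SDs between and within cows.

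CYP3A4 stood higher on the HC diet than on the C diet in 15 of 19 cows by plain CPM, by 17.2 CPM on average in Jerseys and 1.65 CPM in Holsteins, but the diet difference passed the test across all genes in neither breed. The low-RFI Holsteins were close together. CYP3A4 was at 96.3 CPM on C and 106.8 on HC in cow 1, at 108.7 and 117.4 in cow 6, and at 100 and 102.6 in cow 11. It was at 95.2 and 103.1 in cow 16, and at 101.0 and 105.4 in cow 19. All 5 of these cows were thus higher on HC, by at most 10.5 CPM. Among the high-RFI Holsteins, cow 2 was at 125.9 CPM on C and 131.4 on HC, cow 7 at 100.4 and 110.4, and cow 9 at 107.7 and 110.7. Cow 15 went the other way, from 135.4 CPM on C, the highest Holstein library, to 97.6 on HC.

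The 10 Jerseys covered a wider range. Of the low-RFI cows, cow 5 was at 103.1 CPM on C and 120.7 on HC, cow 8 at 115.3 and 145.7, and cow 10 at 87.0 and 120.9. Cow 14 was at 100.4 and 85.4, and cow 17 at 96.6 and 93.8. Low-RFI Jerseys therefore held both clear increases and decreases. Of the high-RFI cows, cow 3 was at 117.6 CPM on C and 143.0 on HC, cow 4 at 104.6 and 150.8, and cow 12 at 122.8 and 152.3. Cow 18 was at 137.7 and 155.5, and cow 13 at 135.7 and 124.5. Cow 4 had the largest diet difference of the 19 cows, at 46.3 CPM or 1.44-fold.

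**Figure D1:**
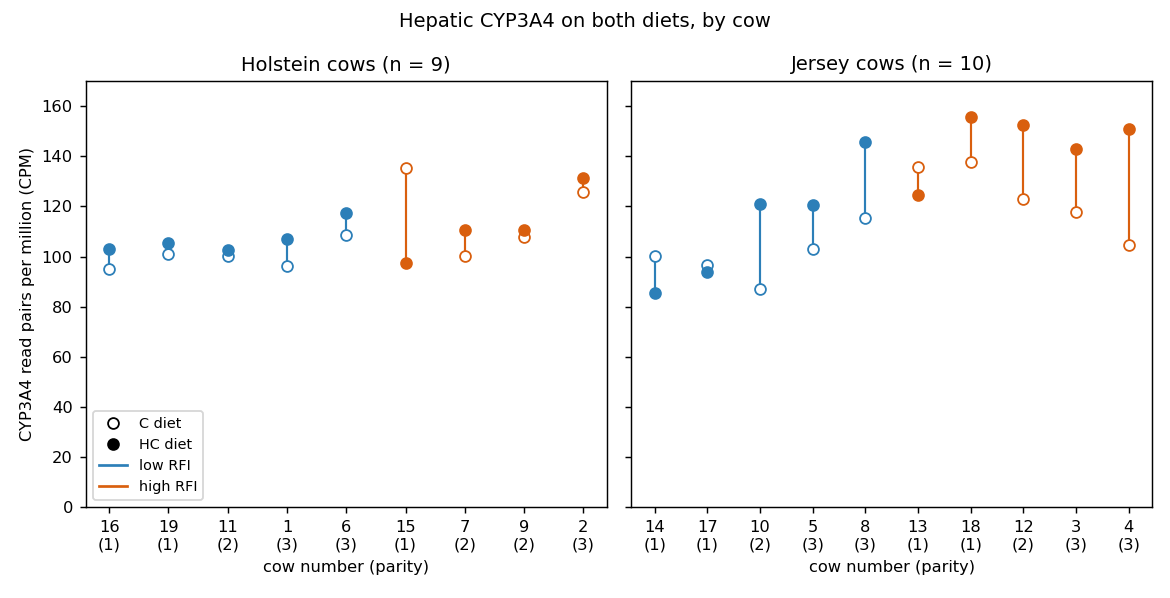
CYP3A4 in CPM (count per 1000000 read pairs assigned to genes) for each cow on the C diet (open circle) and the HC diet (filled circle), with a line joining both libraries of a cow, coloured by RFI group and ordered by RFI group and parity within each breed. The Jersey lines are mostly longer than the Holstein lines, and among Holsteins only the line of cow 15 points downwards, from 135.4 CPM on C to 97.6 on HC.

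The diet comparison asked whether more concentrate in the ration changed hepatic expression. In Holsteins CYP3A4 was at 107.8 ± 13.9 CPM on C and 109.5 ± 9.99 CPM on HC (SD, n = 9 each), and the C and HC values overlapped over most of their range. Within cows, the HC library was higher by 1.65 ± 15.1 CPM on average, in 8 of 9 cows, or in 7 of 9 after scaling of the libraries by trimmed means (TMM), which turned cow 2 around. The fitted log2 fold change, HC against C, was 0.06 (SE 0.08, edgeR quasi-likelihood test with Benjamini-Hochberg adjustment over all kept genes, adjusted p = 0.85), in a comparison in which 0.782% of genes passed the threshold of 0.05. The exact sign-flip test over the 9 cow differences gave p = 0.867 (two-sided). Without cow 15 the difference was 6.59 ± 3.14 CPM (n = 8), positive in 8 of 8 cows, with an exact p = 0.00781, the smallest that 8 cows can give, and an adjusted p = 0.0703 over the 9 exact tests made, while the edgeR fit gave 0.13 (SE 0.06, adjusted p = 0.46). Cow 15 was the only Holstein lower on HC by plain CPM. Leaving it out therefore fixed every sign as positive and the exact p at its minimum, so that p supports nothing.

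In Jerseys CYP3A4 was at 112.1 ± 16.7 CPM on C and 129.3 ± 24.7 CPM on HC (SD, n = 10 each), and these ranges overlapped as well. The HC library was higher by 17.2 ± 20.4 CPM on average, in 7 of 10 cows, or in 9 of 10 after TMM scaling, which turned cows 13 and 17 around. The fitted log2 fold change was 0.25 (SE 0.08), a 1.19-fold difference. It had an unadjusted p = 0.0070 in the edgeR fit but did not pass over all genes (edgeR adjusted p = 0.23), in a comparison in which 0.37% of genes did. The exact sign-flip test over the 10 cow differences gave p = 0.0293, which became 0.217 when adjusted over the 9 exact tests. Without cows 10 and 17 the difference was 17.6 ± 21.0 CPM, higher in 6 of 8 cows, with exact p = 0.0547 and edgeR adjusted p = 0.52. With cow as a fixed block, 71 Jersey genes passed in place of 44 and 345 Holstein genes in place of 94, and CYP3A4 still did not pass in either breed (edgeR adjusted p = 0.18 in Jerseys and 0.79 in Holsteins).

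The diet difference was set directly against breed in 1 fit with cow as a block. The Jersey difference exceeded the Holstein difference by 0.19 on the log2 scale (SE 0.11, edgeR adjusted p = 0.66), and on the cow differences by 15.6 CPM (exact permutation test, two-sided p = 0.0790, adjusted p = 0.217). Without cows 10 and 17 these were 0.19 (SE 0.12, edgeR adjusted p = 0.82) and 15.98 CPM (exact permutation p = 0.0873), and without Holstein cow 15 they were 0.11 (edgeR adjusted p = 0.87) and 10.6 CPM (exact permutation p = 0.165). A breed difference in the response to diet was therefore not shown. In that comparison 0% of genes passed in edgeR, although 1009 of 12103 had an unadjusted p under 0.05, and DESeq2 also called 0.

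By plain CPM, the 4 cows that were lower on HC were all in parity 1, but after TMM scaling the lower cows were 3, Holstein cow 15 and Jersey cow 14 of parity 1 and Holstein cow 2 of parity 3. By plain CPM they were Holstein cow 15, at −37.8 CPM, and Jersey cows 13, 14 and 17, at −11.1, −15.0 and −2.74 CPM. After TMM scaling cows 13 and 17 stood at 2.56 and 2.26 CPM, and cow 2 at −4.77 CPM. The other 3 first-parity cows were higher on HC, by 7.87 CPM in Holstein cow 16, 4.43 in Holstein cow 19 and 17.8 in Jersey cow 18. In Jerseys the mean diet difference was −2.76 ± 14.6 CPM in parity 1 (n = 4), against 31.7 ± 3.06 in parity 2 (n = 2) and 30.0 ± 12.1 in parity 3 (n = 4), and the values of parity 1 did not reach those of parity 2. The highest parity 1 Jersey, at 17.8 CPM, was just above the lowest of parity 3, at 17.6 CPM. In Holsteins the mean diet differences were −8.51 ± 25.5, 5.20 ± 4.21 and 8.26 ± 2.56 CPM in parities 1, 2 and 3 (n = 3 each). This grouping was seen in the values and is given as a description with no test.

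Parity itself, which asks whether the gene differs between young and older cows, was compared on cow means. In Holsteins the cow means were 99.1, 103.2 and 116.5 CPM in parity 1, and 101.5, 113.1 and 128.6 CPM in parity 3. The averages were 106.3 ± 9.09 and 114.4 ± 13.6 CPM (SD, n = 3 each), and the groups overlapped. The log2 fold change, parity 3 against 1, was 0.07 (SE 0.09, edgeR adjusted p = 0.92), where 0.00832% of genes passed, and the exact permutation test gave p = 0.6, in a design that cannot go below 0.1. In Jerseys parity 1 held the lowest cow means of the breed, 92.9 CPM in cow 14 and 95.2 in cow 17, and also the highest, 146.6 in cow 18, with 130.1 in cow 13. Parity 3 was at 111.9, 127.7, 130.3 and 130.5 CPM.

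Jersey parity 1 therefore split by RFI group, with a mean of 94.0 ± 1.66 CPM in the low-RFI cows and 138.4 ± 11.7 CPM in the high-RFI cows, whereas in parity 3 the low-RFI mean of 121.2 ± 13.1 CPM and the high-RFI mean of 129.0 ± 1.85 CPM (n = 2 each) lay closer together. The Jersey parity averages were 116.2 ± 26.5 CPM in parity 1 and 125.1 ± 8.88 CPM in parity 3 (SD, n = 4 each), and the log2 fold change, parity 3 against 1, was 0.13 (SE 0.10, edgeR adjusted p = 0.71), with an exact permutation p = 0.457. Without cows 10 and 17 the averages were 123.2 ± 27.5 CPM (n = 3) and 125.1 ± 8.88 CPM (n = 4). In this comparison 0% of genes passed in edgeR, with 1158 of 11905 at an unadjusted p under 0.05, while DESeq2 called 122.

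Across breeds, the Jersey cow means averaged 120.7 ± 18.5 CPM (SD, n = 10) and the Holstein means 108.7 ± 9.46 CPM (SD, n = 9). The breeds overlapped, with Holsteins from 99.1 to 128.6 CPM and Jerseys from 92.9 to 146.6 CPM, and the Jerseys lay both below and above the Holstein range. The log2 fold change, Jersey against Holstein, was 0.12 (SE 0.06, edgeR adjusted p = 0.29) while 3.38% of genes passed, and the exact permutation test gave a two-sided p = 0.0963. Without cows 10 and 17 the Jersey mean was 126.0 ± 16.5 CPM (n = 8), with an exact permutation p = 0.0189, adjusted to 0.17 over the family, and an edgeR adjusted p = 0.35.

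High-RFI Jerseys, the less feed efficient group, had the highest CYP3A4 of the 4 groups of breed and RFI. Their cow means were 127.7, 130.1, 130.3, 137.6 and 146.6 CPM, with a mean of 134.5 ± 7.75 (SD, n = 5). The low-RFI Jerseys were at 92.9, 95.2, 104.0, 111.9 and 130.5 CPM, with a mean of 106.9 ± 15.2 (SD, n = 5). Cow 8, at 130.5 CPM, was the only low-RFI Jersey above any high-RFI Jersey. The log2 fold change, high against low RFI, was 0.35 (SE 0.08), a 1.27-fold difference, and 0.31 (SE 0.11) without cows 10 and 17, when the low-RFI mean was 111.8 ± 18.8 CPM (n = 3). Because the study listed this gene for its difference between the Jersey RFI groups in these same libraries, the difference is given as a description with no test. In this comparison 0.0336% of the kept genes passed in edgeR.

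The mean of the high-RFI Jerseys was above that of the low-RFI Jerseys on both diets, again as a description. On C the high-RFI cows were at 123.7 ± 13.7 CPM and the low-RFI cows at 100.5 ± 10.3 CPM. On HC they were at 145.3 ± 12.5 and 113.3 ± 24.1 CPM (SD, n = 5 each). The values overlapped on each diet. On C the lowest high-RFI cow, cow 4 at 104.6 CPM, was below low-RFI cow 8 at 115.3 CPM, and on HC high-RFI cow 13 at 124.5 CPM and cow 3 at 143.0 CPM were below low-RFI cow 8 at 145.7 CPM.

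In Holsteins, whose RFI groups were not part of that choice, the high-RFI mean was also above the low-RFI mean, and whether the RFI difference differed between the breeds was not tested. The high-RFI cow means were 105.4, 109.2, 116.5 and 128.6 CPM, with a mean of 114.9 ± 10.2 (SD, n = 4). The low-RFI means were 99.1, 101.3, 101.5, 103.2 and 113.1 CPM, with a mean of 103.7 ± 5.45 (SD, n = 5). Cow 6, at 113.1 CPM, was the only low-RFI Holstein above any high-RFI Holstein, and the other 4 were below all of them. The log2 fold change was 0.17 (SE 0.08), with an unadjusted p = 0.0445 in edgeR, and it did not pass over all genes (edgeR adjusted p = 0.58), where 0.0665% of genes did. That fit counts both libraries of a cow separately, and with the libraries of a cow summed the edgeR adjusted p was 0.99. The exact permutation test over cow means gave a two-sided p = 0.0794, adjusted to 0.217. Cow 2, the highest Holstein, carried much of this difference, which was 6.72 CPM without it in place of 11.3 CPM (exact permutation p = 0.179).

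**Figure D2:**
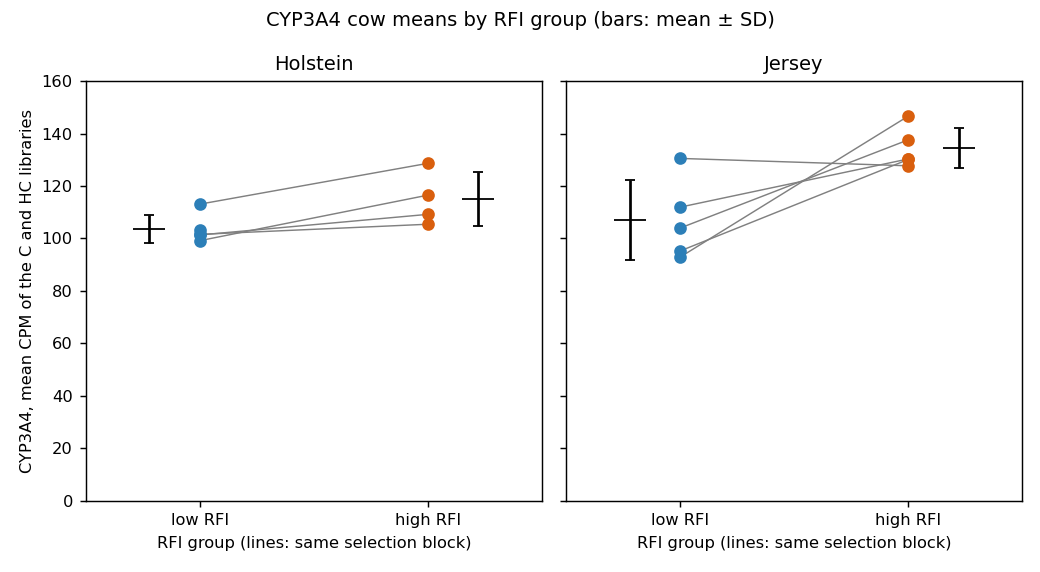
CYP3A4 as the mean CPM of the C and HC libraries of each cow (points), by RFI group in Holsteins (5 low, 4 high) and Jerseys (5 low, 5 high), with grey lines joining the cows of a selection block and bars for mean ± SD. The lines rise from low to high RFI in all 4 Holstein blocks and in 4 of 5 Jersey blocks, the exception being Jersey block 2 at 130.5 and 127.7 CPM. The study listed the gene for its RFI difference in these Jerseys, so the Jersey lines are a description only.

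The cows had been selected in blocks that held a low-RFI and a high-RFI cow, so the same values can be read within blocks. The high-RFI cow had the higher cow mean in 4 of 4 Holstein blocks, by 3.87 to 17.4 CPM. On the HC diet alone this held in 3 of 4 blocks, since cow 15 was then at 97.6 CPM and cow 16 at 103.1 CPM. In Jerseys the high-RFI cow was higher in 4 of 5 blocks, by 18.4 to 53.8 CPM, and lower in block 2, with 127.7 CPM in cow 4 and 130.5 in cow 8. On the HC diet it was higher in 5 of 5 Jersey blocks and on the C diet in 4 of 5. These Jersey counts restate the RFI difference for which the study listed the gene, so they describe it and support nothing further. The difference was largest in block 3, with 146.6 CPM in cow 18 and 92.9 in cow 14. Block 1 holds cow 10 and block 5 holds cow 17, so 2 of the Jersey blocks rest on the libraries that stood apart in the check of the cow labels.

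Markers of other cell types could be checked for very few genes, since only 3 of 78 marker symbols were paired with an identifier, so a check over the marker lists was void. The 3 were CD3D of T cells, NKG7 of cytotoxic lymphocytes and LYZ, the lysozyme of myeloid cells, and the study had listed them from these same libraries. In Holsteins, high against low RFI, LYZ stood at 0.98 on the log2 scale (SE 0.16), which passed with both libraries of a cow counted separately (edgeR adjusted p = 0.023) and did not pass with them summed (edgeR adjusted p = 0.067), and CD3D and NKG7 stood at 0.59 (SE 0.16) and 0.51 (SE 0.13) without passing (edgeR adjusted p = 0.28 and 0.22). In Jerseys the log2 fold changes of LYZ, CD3D and NKG7 were −0.28, −0.38 and −0.10, and −0.23, −0.51 and −0.16 without cows 10 and 17, none of which passed. Their part in the values of CYP3A4 was not tested.

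The interaction of diet and RFI asked whether the diet difference depended on RFI group. In Holsteins the HC minus C difference was −4.82 ± 22.2 CPM in high-RFI cows (n = 4) and 6.83 ± 3.27 CPM in low-RFI cows (n = 5). The fitted interaction was −0.22 (SE 0.15, edgeR adjusted p = 1), with an exact permutation p = 0.365. It rested largely on cow 15, since without this cow the difference between the RFI groups was −0.639 CPM in place of −11.6 CPM. In Jerseys the differences were 21.6 ± 21.0 CPM in high-RFI and 12.8 ± 21.2 CPM in low-RFI cows (n = 5 each). The fitted interaction was 0.07 (SE 0.17, edgeR adjusted p = 1.00), with an exact permutation p = 0.563, and it was −0.035 without cow 14 and 0.08 (SE 0.21) without cows 10 and 17. In edgeR 0% of genes passed for this interaction in Holsteins, where 206 of 12025 had an unadjusted p under 0.05 and DESeq2 called 0, and 0% in Jerseys, where 443 of 11905 did and DESeq2 called 2.

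CYP3A4 overlapped between the periods of the crossover. In Holsteins CYP3A4 was at 106.6 ± 10.5 CPM in the first period and 110.8 ± 13.2 CPM in the second (SD, n = 9). In Jerseys it was at 122.5 ± 18.7 and 118.8 ± 26.4 CPM (SD, n = 10). The second period was higher in 5 of 9 Holsteins and 4 of 10 Jerseys. The log2 fold change over both breeds, second against first, was −0.02 (SE 0.06, edgeR adjusted p = 0.98), and it was 0.04 in Holsteins alone, −0.10 in Jerseys alone and −0.0053 without Jersey cows 10 and 17. In this comparison 0% of genes passed in edgeR, with 639 of 12103 at an unadjusted p under 0.05, and DESeq2 called 2.

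**Figure D3:**
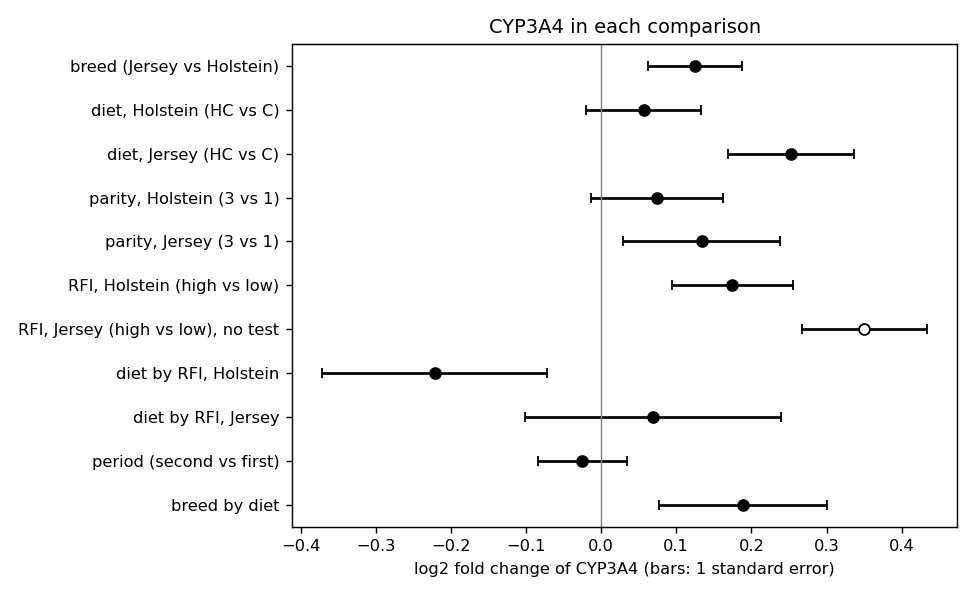
Fitted log2 fold change of CYP3A4 in each of 11 comparisons (points) with 1 standard error on each side (bars), where the open circle is the Jersey RFI difference that is given with no test. The largest values are 0.35 for RFI in Jerseys and 0.25 for diet in Jerseys, and no tested comparison passed after adjustment over all genes.

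The SD of the cow means was larger in Jerseys than in Holsteins. The order of the breeds in the SD within cows depended on the scaling of the libraries. On the log2 scale, the SD of the Holstein cow means was 0.12, below the median of 0.17 over all 12025 kept genes. The SD within Holstein cows, after the mean diet difference was taken out, was 0.14 (median over genes 0.20). In Jerseys the SD of the cow means was 0.23, above the median of 0.17 over 11905 genes, and the SD within cows was 0.18 (median over genes 0.21). After TMM scaling the SD of the cow means was still 0.12 in Holsteins and 0.23 in Jerseys. The SD within cows after the mean diet difference was then 0.183 in Holsteins and 0.177 in Jerseys, against 0.136 and 0.178 by plain CPM. By plain CPM, Jersey cows thus differed from each other in CYP3A4 more than they did for 70.5% of genes. Their libraries within a cow differed less than the median gene once the mean diet difference was taken out. With the diet difference left in, the SD within Jersey cows was 0.218 (median over genes 0.223). After TMM scaling it was 0.241 (median over genes 0.213). The study listed the gene for its RFI difference between these same Jerseys, a choice that favours genes with a wide spread between Jersey cows. Its place among all genes in Jerseys is therefore not independent of that choice.

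As a share of variance between cows, CYP3A4 stood at 0.53 in Jerseys, higher than 88.6% of genes, and at 0.45 without cows 10 and 17. In Holsteins the share was 0.22, near the median over genes of 0.19. The Holstein share was decided by single cows. It was 0.94 without cow 15, when the SD within cows fell to 0.032, and −0.26 without cow 2, where a value below 0 means that both libraries of a cow differed at least as much as libraries of different cows. These values are descriptions, and the Jersey values carry the choice of the gene on its Jersey RFI difference. The difference in spread between the breeds was not tested.

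**Figure D4:**
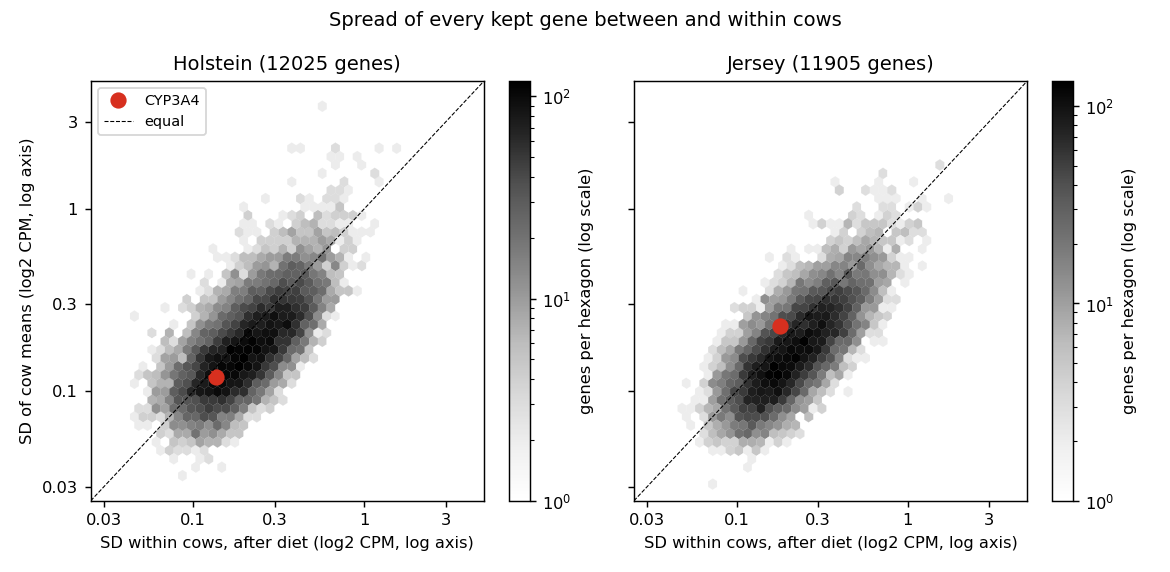
SD within cows after the mean diet difference (x axis) against SD of cow means (y axis), both in log2 CPM on log axes, for all kept genes in Holsteins (12025) and Jerseys (11905), with grey shade for the number of genes and CYP3A4 in red. CYP3A4 lies at 0.14 and 0.12 in Holsteins and at 0.18 and 0.23 in Jerseys, where it is above the dashed line of equal spread.

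The genes that moved most like CYP3A4 from cow to cow were sought over the 19 cow means of log2 CPM after each breed mean was subtracted. These correlations are across cows that share breed, herd and sequencing run, they are the extremes of 12102 genes, and they are given as descriptions. The closest was ENSBTAG00000003585 at r = 0.84, with r = 0.60 in Holsteins and 0.89 in Jerseys, followed by ENSBTAG00000037795 at r = 0.79, with 0.73 and 0.81. Their HC minus C differences followed those of CYP3A4 less closely, at r = 0.31 and 0.59. Without cows 10 and 17 both stood at r = 0.79 over the cow means. The 6 closest genes all had r of 0.74 or more. The most opposed were ENSBTAG00000020417 at r = −0.77 and ENSBTAG00000001744 at r = −0.74, or −0.81 and −0.76 without cows 10 and 17. The sources used here pair none of these identifiers with a symbol.

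Few genes of related function could be identified by name. Of the 258 symbols listed for P450 enzymes, their partners, conjugating enzymes, transporters, regulators and cell types, 7 were paired with an identifier, so no count over these lists is given. Among the regulators only NR1H4 was paired, the bile acid receptor FXR of hepatocytes. Over the cow means it followed CYP3A4 weakly, at r = 0.17, or 0.13 without cows 10 and 17. The diet fold change of NR1H4 on the log2 scale was 0.01 in Holsteins (SE 0.06) and −0.18 in Jerseys (SE 0.11, and −0.18 without cows 10 and 17), against 0.06 and 0.25 for CYP3A4, and neither gene passed in either breed. CYP7A1, the rate-limiting enzyme of bile acid synthesis, was at r = 0.01 with CYP3A4, and CYP11A1, the mitochondrial enzyme that cleaves the cholesterol side chain, at r = 0.16, or −0.0024 and 0.25 without cows 10 and 17. The values were not alike in the breeds, and that difference was not tested. The study listed NR1H4, CYP7A1 and CYP11A1 for their RFI difference in these same Holsteins, and RFI was not taken out of the cow means. That choice favours a higher r with CYP3A4 in Holsteins, so the values by breed are descriptions. In Holsteins alone r was 0.36 for NR1H4, 0.29 for CYP7A1 and 0.69 for CYP11A1, and in Jerseys alone 0.10, −0.24 and −0.10.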

How the data were processed

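The labels and the methods of the study describe liver biopsies, stranded mRNA libraries pooled in 1 sequencing run, alignment with STAR 2.3.0 to UMD3.1 with the Ensembl annotation and counting with HTSeq. The deposited values are raw counts of read pairs per gene, 1 table per library. The strand setting of the counting is not given in the sources used here. Reads that fit several related genes may be lost or misplaced by such counting.

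CPM was computed from the total of the gene rows, and the summary rows (20.1 to 25.1% of read pairs) were left out. Genes with at least 1 CPM in 8 Holstein or 10 Jersey libraries were kept. Diet and RFI were fitted per breed with parity, diet and RFI in edgeR 4.0.16 (TMM, quasi-likelihood, R 4.3.3), with an interaction term added for diet by RFI. Breed and parity were fitted on the summed libraries of each cow, and period and breed by diet with cow as a block. P-values were adjusted by Benjamini-Hochberg over all genes, with a threshold of 0.05. DESeq2 1.42.0 and limma 3.58.1 served as alternatives. Exact permutation tests over cows (scipy 1.17.1, two-sided) formed a family of 9, adjusted together. Scripts were tested on simulated data.

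Cow numbers pair the libraries, since both come from the same animal: after subtraction of group means, libraries of a cow correlated at a mean of 0.43 in Holsteins (9 of 9 above 0.1) and 0.32 in Jerseys (9 of 10). Log2 CPM for spread and likeness used an added count of 0.5. Period and selection block came from the methods of the study, which number the cows otherwise than the labels do. The link used here follows the order of the study's cow numbers and matches the labels in breed and parity. It is not stated in the labels, and all values by period and block rest on it. The gene, lists and tests were chosen with earlier results of these data known. The named genes were CYP3A4, other paired CYP3A genes, NR1H4 and 4 further regulators, up to 4 members of each list past the threshold, and the genes most and least alike over cows. CYP7A1, CYP11A1, CD3D and NKG7 were named in addition, after their values were seen. Gene symbols came from 77 identifiers of the study's lists, since the RefSeq table (ARS-UCD2.0) pairs 0 of 37063 genes with an Ensembl identifier. Sequences were not used here.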

Additional observations from a re-analysis of the deposited data

Results flagged for a closer look

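Each group of 4 to 10 cows was checked for a cow whose gap to its nearest neighbour was a large part of the range (Dixon's test at the 95% level). By plain CPM 3 of 12 groups held one, where chance flags about 1 in 20. The HC minus C difference of Holstein cow 15 was −37.8 CPM, and the gap to the next cow was 0.83 of the range of the 9 Holsteins. It was 0.59 of the range after TMM scaling, still above the critical value of 0.493. Among the low-RFI Holsteins on HC, cow 6 was high at 117.4 CPM, with a gap of 0.715 of the range against a critical value of 0.71. Among the parity 3 Jerseys, cow 5 had a low cow mean of 111.9 CPM, with a gap of 0.85 of the range. The flags of cows 6 and 5 rest on plain CPM. After TMM scaling cow 6 was at 123.4 CPM, the next cow at 115.2 and the lowest at 100.4. Cow 5 was then at 114.5 CPM, the next cow at 126.1 and the highest at 136.8. Both gaps were thus a smaller part of the range than by plain CPM. The cause was not tested for any of these cows.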

How the results depend on the processing

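In the tested comparisons, which leave out RFI in Jerseys, 0 of 176 refits brought CYP3A4 past the threshold in edgeR, limma or DESeq2 and 174 kept its direction, and direction and side of the threshold were kept in 189 of 189 alternative exact tests. Many of these 189 are tests within 1 breed where the cow left out was of the other breed. Those could not change direction and are not separate checks. The log2 fold change turned around in 2 refits: the diet by RFI interaction in Jerseys was −0.035 without cow 14 (range over single cows left out −0.035 to 0.13), and the period difference was 0.045 in Holsteins alone. Over single cows left out, the log2 fold change was 0.10 to 0.16 for breed, 0.03 to 0.13 and 0.22 to 0.30 for diet in Holsteins and Jerseys, 0.020 to 0.15 and 0.057 to 0.22 for parity, 0.11 to 0.24 for breed by diet, −0.32 to −0.059 for the Holstein interaction, −0.066 to −0.00041 for period, and 0.13 to 0.20 and 0.28 to 0.41 for RFI. The lowest adjusted p over the alternatives of the tested comparisons was 0.11 (edgeR), for diet in Jerseys and for breed. Both came from leaving out Jersey cow 14, with log2 fold changes of 0.30 for diet in Jerseys and 0.16 for breed. RFI in Jerseys, on which the study chose the gene, passed in 1 of 18 fits, that with DESeq2 (adjusted p = 0.040, edgeR 0.31), and these p-values are not independent evidence. With cow as a fixed replicate block the diet values were 0.06 in Holsteins and 0.25 in Jerseys and the interactions −0.22 and 0.09, and the block changed no other call.

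The Holstein spread moved most. Over single cows left out, the SD of cow means was 0.079 to 0.13, the SD within cows 0.070 to 0.14, the same after the mean diet difference 0.032 to 0.14, and the share of variance between cows −0.26 to 0.94. TMM scaling gave a share of −0.081 and an SD within cows of 0.18, both before and after the mean diet difference was taken out.

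Counts of genes past the threshold depended on the method. DESeq2 called 828 genes for breed, 343 and 196 for diet in Holsteins and Jerseys, 73 and 122 for parity, and 61 and 21 for RFI, where edgeR called 409, 94 and 44, 1 and 0, and 8 and 4. Without cows 10 and 17 edgeR called 72 for breed and 7 for diet in Jerseys (23 with the block), 6 for RFI and 1 for parity. A random replicate block gave 871 for breed, 7 and 10 for parity, and 5 and 3 for RFI, the fixed block with period gave 311 and 84 for diet, and summed libraries gave 0 and 0 for RFI. With no filter RFI had 16 and 8, and with selection block in place of parity 29 and 3. Leaving out single cows gave 192 to 757 for breed, 15 to 135 and 3 to 51 for diet, 0 to 7 and 0 to 2 for parity, and 4 to 16 and 1 to 6 for RFI. The counting error of CYP3A4 was at most 2.52%, a value that does not cover reads shared between near copies of the gene.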
